A study of Mus musculus with 15 samples.

Results

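The connexin genes Gja5, Gja4, Gja1 and Gjc1, the arterial kinase gene Bmx and the COUP-TF nuclear receptor genes Nr2f2 and Nr2f1 were described over 5 groups of sorted mouse cells. The members were the 7 lines of the deposited count table whose symbol is Gja5, Gja4, Gja1, Gjc1, Bmx, Nr2f2 or Nr2f1, of 24034 gene lines kept. All 7 symbols were found, each on 1 line, and 6 of the 7 passed the filter on low counts that left 13662 genes for testing. Nr2f1 did not pass it. Gja5 and Bmx had nearly all their reads in the ENG+ groups, so they passed through the groups where they were high.

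The study made embryonic stem cell lines with reporters driven by the promoter (P) of the endoglin gene and its enhancers at -8, +7 and +9 kb, differentiated them, sorted cells and sequenced their RNA. The -8/P reporter line gave 3 groups that the labels call HEI: ENG+FDG+, ENG-FDG+ and ENG+FDG- cells. The -8/P/+7/+9 line gave FLK1+ LacZ+ and FLK1+ LacZ- cells, mesoderm by the study's design text. Each group had 3 libraries, numbered 1 to 3. ENG is endoglin, an endothelial surface receptor, and FLK1 is the VEGF receptor encoded by Kdr. FDG is the usual short name of a substrate that LacZ makes fluorescent, so FDG+ and LacZ+ both mark cells with an active reporter. The labels spell out neither HEI nor FDG, and they name no culture days, sort gates, clones or separate cultures. The p-values therefore measure the spread between these libraries, which may be technical. All groups carried a reporter. The HEI and FLK1+ groups differed in reporter construct as well as in cell population, and these cannot be told apart.

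Connexins are membrane proteins that assemble into gap junctions, channels through which neighbouring cells share ions and small molecules. In the vessel wall Gja5 and Gja4 mark arterial endothelium, where their levels are known to depend on flow and Notch signalling, and haemogenic endothelium of the embryo arises mainly in arteries. COUP-TFII, the product of Nr2f2, maintains venous identity by holding back the arterial programme in vein endothelium. Arterial and venous genes can be present together in endothelium that has not yet been specified.

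The promoters of Gja5, Gja4, Bmx and Nr2f2 are shown because all 4 had their highest group means in the ENG+ HEI groups. Each line gives the 250 bases before the RefSeq transcription start on GRCm38.p6, written from 5′ to 3′ on the gene's strand. The Gja5 window is chr3:97032152-97032401 on the plus strand, that of Gja4 chr4:127314040-127314289, that of Bmx chrX:164258194-164258443 and that of Nr2f2 chr7:70366747-70366996, the last 3 on the minus strand. Capitals mark GGAA or its reverse complement TTCC, the core of ETS factor sites, and ACAAT or its reverse complement ATTGT, a core of SOX factor sites.
Gja5: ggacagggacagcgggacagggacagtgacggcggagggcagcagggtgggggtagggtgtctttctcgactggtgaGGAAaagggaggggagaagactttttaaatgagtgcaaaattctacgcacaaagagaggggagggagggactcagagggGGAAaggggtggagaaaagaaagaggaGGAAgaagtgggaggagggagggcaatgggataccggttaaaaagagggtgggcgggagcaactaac
Gja4: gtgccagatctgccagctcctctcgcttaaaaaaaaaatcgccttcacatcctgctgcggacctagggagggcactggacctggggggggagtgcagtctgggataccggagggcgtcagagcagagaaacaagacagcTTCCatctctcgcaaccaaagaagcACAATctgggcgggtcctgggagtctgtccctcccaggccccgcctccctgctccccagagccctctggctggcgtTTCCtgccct
Bmx: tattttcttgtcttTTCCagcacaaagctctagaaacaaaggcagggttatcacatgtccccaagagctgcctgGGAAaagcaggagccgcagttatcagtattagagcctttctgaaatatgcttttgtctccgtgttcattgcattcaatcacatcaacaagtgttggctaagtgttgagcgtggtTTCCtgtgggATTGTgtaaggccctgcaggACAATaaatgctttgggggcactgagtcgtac
Nr2f2: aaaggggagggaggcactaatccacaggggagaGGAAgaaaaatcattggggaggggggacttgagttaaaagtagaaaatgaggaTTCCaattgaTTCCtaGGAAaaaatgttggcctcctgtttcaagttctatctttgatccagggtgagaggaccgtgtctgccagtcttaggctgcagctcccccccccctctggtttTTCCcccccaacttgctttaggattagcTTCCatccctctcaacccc
On both strands together GGAA was found 3 times before Gja5, 2 times before Gja4, 3 times before Bmx and 6 times before Nr2f2, and 93.4% of 32851 RefSeq promoters of the same length hold it. ACAAT was found once before Gja4, 2 times before Bmx and not before Gja5 or Nr2f2, and 27.7% of promoters hold it. TGGGAA, the core bound by the Notch partner RBPJ, was found once, before Bmx, where it overlaps a GGAA, and 21.6% of promoters hold it. AGGTCA, a nuclear receptor core, was in none of the 4 windows and is in 14% of promoters, and the TATA motif TATAAA was in none and is in 12.4%. GATA was found once before Gja5, Gja4 and Nr2f2 and 2 times before Bmx, and 53.6% of promoters hold it. CANNTG, the E-box, was found once before Nr2f2, 2 times before Bmx and not before Gja5 or Gja4, and 66.2% hold it. GGGCGG, the GC box, was found once before Gja5 and Gja4 and not before Bmx or Nr2f2, and 32.7% hold it. Bases G and C made up 56.4% of the Gja5 window, 61.2% of that of Gja4, 45.6% of that of Bmx and 50% of that of Nr2f2. These matches are descriptions of the letters in the windows, not binding sites.

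Library totals were 9673396 to 16337785 counts. Replicate 1 stood apart in every group: the correlation of log2 CPM (edgeR's scaled count at a common library size, after TMM normalization) between replicates 2 and 3 was 0.987 to 0.990, and that of replicate 1 with either was 0.864 to 0.933. Results are therefore given also from a fit that blocks on the replicate number, and from replicates 2 and 3 alone. Eng, as a check of the sort, was 180 to 904 CPM in ENG+FDG+, 39.4 to 161 CPM in ENG-FDG+ libraries and 184 to 962 CPM in ENG+FDG- libraries, and both ENG+ groups lay above the ENG- group. Endothelial identity was checked with 14 markers, and none was at 0 in any group. Eng and Kdr, the genes of the surface proteins used in the sorts, are among the 14, so part of the difference in their sum follows from the sort. Their summed level was 4905 to 7407 CPM in ENG+FDG+, 2774 to 2993 CPM in ENG-FDG+ libraries and 4711 to 8255 CPM in ENG+FDG- libraries, against 707 to 1007 CPM in FLK1+ LacZ+ and 515 to 836 CPM in FLK1+ LacZ- libraries.

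The arterial genes Gja5, Gja4 and Bmx and the venous gene Nr2f2 were all higher in HEI cells than in FLK1+ cells, and the widely used connexin genes Gja1 and Gjc1 were lower. The 4 higher and 2 lower calls stand beside 17% of all tested genes called higher and 20.3% called lower, and with the replicate block, which called 66.2% of genes, all 6 calls were the same. Within HEI, the 4 vascular genes had their highest means in both ENG+ groups, and Gja5 and Bmx were close to 0 in ENG-FDG+ cells. Against ENG-FDG+ cells 0 of the 6 tested members passed with group means in either ENG+ group. With the replicate number as a block, Gja5, Bmx and Nr2f2 passed in both comparisons, which called 10.8% of all tested genes with ENG+FDG+ and 11.1% with ENG+FDG- cells. Gja5 and Bmx, counted here and in the HEI against FLK1+ calls above, passed the low-count filter through the ENG+ groups. Where the reporter sort alone differed, ENG+FDG+ against ENG+FDG- and FLK1+ LacZ+ against LacZ-, no member differed detectably. ENG-FDG+ and ENG+FDG- cells differed in both ENG and reporter, which cannot be told apart in that comparison. In the test of any difference among the 5 groups, 6 of 6 tested members were called, against 23.2% of all tested genes, with adjusted p values between 0.000919 for Bmx and 0.0127 for Gja5 and Gja1. These 6 include Gja5 and Bmx, which passed the filter through the ENG+ groups, so the count is not evenly set against that share.

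**Figure D1:**
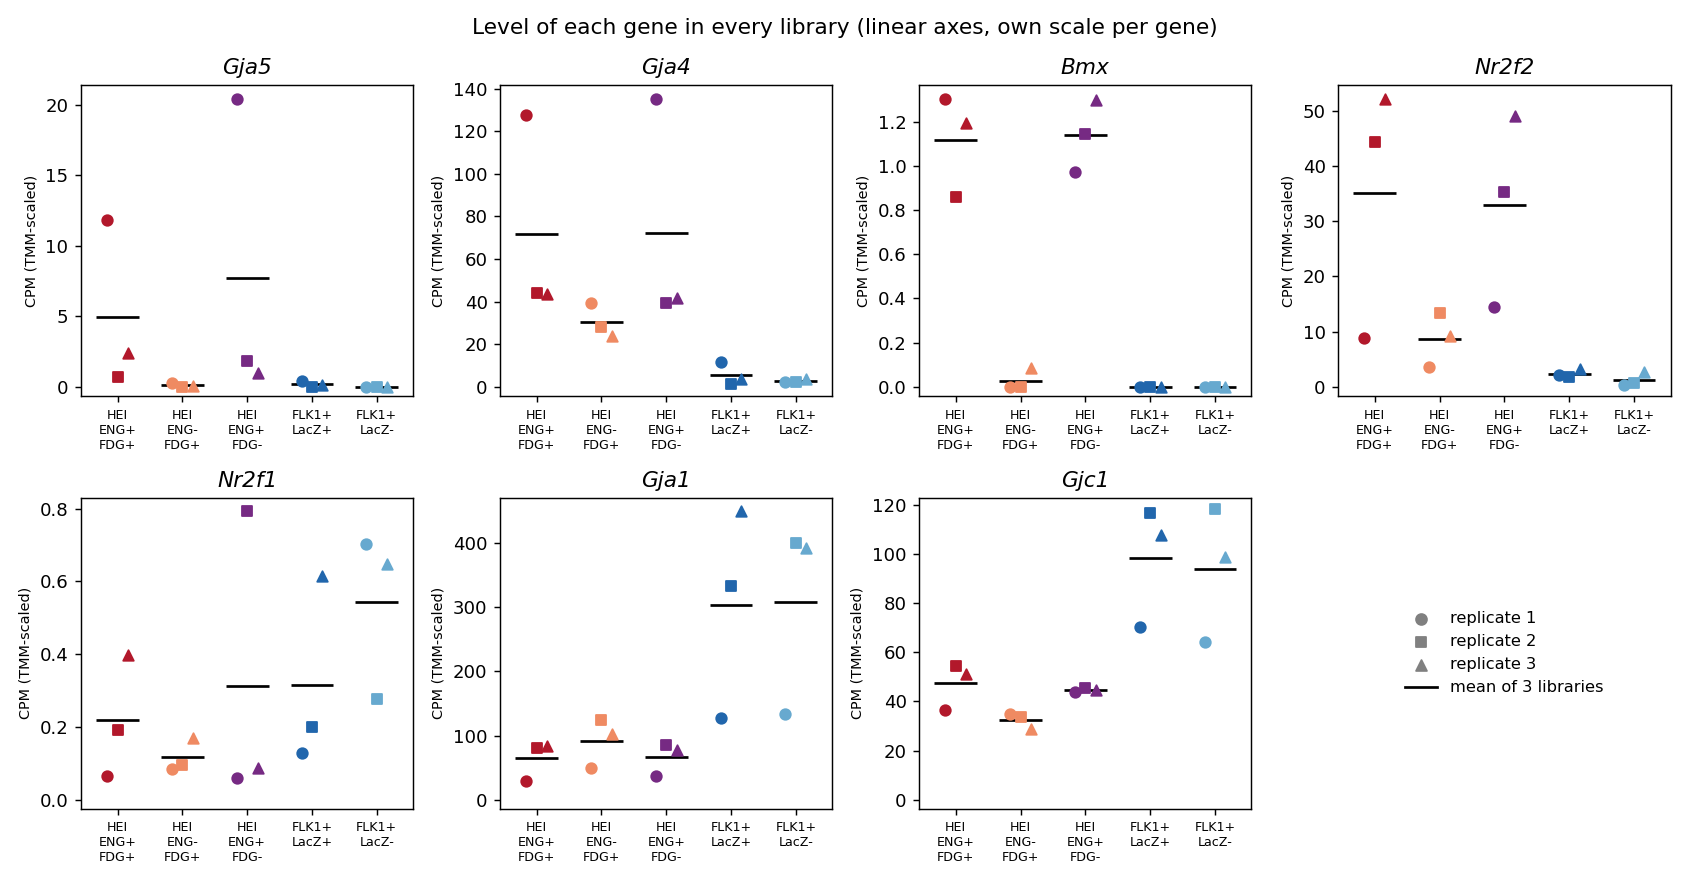
Level in CPM (TMM-scaled, linear axes with a scale for each gene) of the 7 genes in each of the 15 libraries, with points for libraries, shapes for replicate numbers and black lines for means of 3. Gja5, Gja4, Bmx and Nr2f2 are highest in the ENG+ HEI groups, Gja1 and Gjc1 in the FLK1+ groups, and the circles of replicate 1 lie high for Gja5 and Gja4 and low for Nr2f2 and Gja1 in the ENG+ groups.

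Gja5 encodes Cx40, the connexin of arterial endothelium and of the atria and conduction system of the heart. The gene spans chr3:96904693-97077416 on the plus strand of GRCm38. Replicates 1, 2 and 3 held 182, 7 and 24 counts in ENG+FDG+ cells, 3, 0 and 1 counts in ENG-FDG+ cells and 336, 21 and 11 counts in ENG+FDG- cells. FLK1+ LacZ+ libraries held 7, 0 and 1 counts, and the 3 FLK1+ LacZ- libraries held none. Reads were thus few outside the ENG+ groups, and within those groups replicate 1 carried most of them. The levels were 11.8, 0.667 and 2.38 CPM in ENG+FDG+ libraries, a mean of 4.96 ± 6.02 (SD, n = 3), 0.113 ± 0.130 CPM in ENG-FDG+ libraries and 7.73 ± 11 CPM in ENG+FDG- libraries. Each ENG+ library lay above each ENG- library. In sorted bulk RNA, fewer cells with a transcript and less of it per cell cannot be told apart.

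Between ENG+FDG+ and ENG-FDG+ cells the Gja5 difference was 5.31 ± 1.67 on the log2 scale (± SE), which did not pass with group means alone (adjusted p = 0.273), where 0 of 6 members passed, against 0.278% of all tested genes. With the replicate block it was 5.33 ± 0.80 (adjusted p = 0.00185), and DESeq2 gave 5.41 (adjusted p = 0.0182). In replicates 2 and 3 it was 4.81 ± 1.12 (adjusted p = 0.00299), in a fit that called 29.3% of genes. The ratio of mean levels was 43.8, with 4 counts in all in ENG-FDG+ cells. Without 1 library the difference by group means ran from 3.60, without replicate 1 of ENG+FDG+, to 6.51, without replicate 1 of ENG-FDG+, and was called in none of these fits. Gja5 was higher in ENG+FDG+ cells in 3 of 3 replicate numbers. ENG-FDG+ cells, set against ENG+FDG- cells, differed by -5.94 ± 1.69 (adjusted p = 0.221) with group means and by -5.72 ± 0.80 (adjusted p = 0.00124) with the block, and without 1 library the first value ran from -7.18, without replicate 1 of ENG-FDG+, to -3.48, without replicate 1 of ENG+FDG-. Both comparisons share the ENG-FDG+ libraries.

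Over all HEI libraries Gja5 averaged 4.27 CPM, against 0.0916 CPM in FLK1+ libraries, a log2 difference of 5.17 ± 1.47 (adjusted p = 0.0169), in a comparison that called 37.3% of all tested genes. The HEI and FLK1+ ranges overlapped, through the ENG-FDG+ libraries at 0 to 0.255 CPM. Without replicate 1 of ENG-FDG+ the difference was 4.79 and was no longer called (adjusted p = 0.144), and in replicates 2 and 3 alone it was 4.27 ± 1.57 (adjusted p = 0.0206). FLK1+ LacZ+ cells had 8 counts in all and LacZ- cells 0, which is at least 2.70-fold when LacZ- is set at a floor of 3 counts over the group, and 7 of the 8 reads came from 1 library. Exons of Gja5 overlap 165 bases of Gpr89 on the other strand, and the strand setting of the counting is not given in the sources used here. Gpr89 had 237 to 430 counts in all libraries, also in those with no Gja5 read.

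Gja4 encodes Cx37, the other arterial endothelial connexin, which also couples oocytes to granulosa cells, and lies at chr4:127311421-127314039 on the minus strand. Per kb of exon it was the most abundant of the vascular members in each group. In replicates 1, 2 and 3 it was at 127, 44.1 and 43.6 CPM in ENG+FDG+ cells, 39.4, 28.1 and 23.7 CPM in ENG-FDG+ cells and 135, 39.4 and 41.7 CPM in ENG+FDG- cells. FLK1+ LacZ+ libraries had 11.8, 1.30 and 3.59 CPM, and FLK1+ LacZ- libraries 2.31, 2.31 and 3.61 CPM. Every HEI library lay above every FLK1+ library, and ENG-FDG+ libraries lay between the ENG+ groups and the FLK1+ groups, the highest of them level with the lowest ENG+FDG- library. The means were 71.7 ± 48.3 CPM in ENG+FDG+, 30.4 ± 8.09 CPM in ENG-FDG+, 72.0 ± 54.6 CPM in ENG+FDG-, 5.55 ± 5.49 CPM in FLK1+ LacZ+ and 2.75 ± 0.753 CPM in FLK1+ LacZ- libraries (SD, n = 3 each).

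HEI cells averaged 58.0 CPM of Gja4 and FLK1+ cells 4.15 CPM, a log2 difference of 3.78 ± 0.53 (adjusted p = 0.000113) and a ratio of 14. The groups of this comparison did not overlap, which was so for 8.58% of all tested genes in the higher direction and for 9.57% in the lower. ENG+FDG+ cells differed from ENG-FDG+ cells by 1.24 ± 0.70 (adjusted p = 0.681) with group means and by 1.05 ± 0.37 (adjusted p = 0.0868) with the block, neither of which passed. Without 1 library the first value ran from 0.53, without replicate 1 of ENG+FDG+, to 1.5, without replicate 3 of that group. In replicates 2 and 3 alone the difference was 0.82 ± 0.17 and passed (adjusted p = 0.00154), in a fit that called 29.3% of genes. Gja4, unlike Gja5 and Bmx, was thus well above its FLK1+ level in ENG-FDG+ cells too, at 23.7 CPM or more in each library.

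Bmx encodes a TEC-family tyrosine kinase of arterial endothelium and endocardium and lies at chrX:164192842-164258193 on the minus strand. It was low everywhere, with 20, 9 and 12 counts in ENG+FDG+ cells, 0, 0 and 1 counts in ENG-FDG+ cells and 16, 13 and 15 counts in ENG+FDG- cells. All 6 FLK1+ libraries held no read. Bmx differed from Gja5 in that replicate 1 did not stand out: the ENG+FDG+ libraries had 1.30, 0.857 and 1.19 CPM (mean 1.12 ± 0.231) and the ENG+FDG- libraries 0.971, 1.15 and 1.30 CPM (mean 1.14 ± 0.164).

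Summed over libraries, ENG+FDG+ cells had 41 Bmx counts and ENG-FDG+ cells 1, a ratio of 38.7 at equal depth with a 95% counting interval of 6.57 to 1565, which covers counting error only. The log2 difference of 4.83 ± 0.88 missed the threshold with group means (adjusted p = 0.0679) and passed with the block, at 4.86 ± 0.99 (adjusted p = 0.0135), and with DESeq2, at 5.15 (adjusted p = 0.0103). ENG-FDG+ against ENG+FDG- cells gave -4.85 ± 0.88 (adjusted p = 0.0647) with group means and -4.88 ± 0.99 (adjusted p = 0.0132) with the block. HEI libraries held 86 counts and FLK1+ libraries 0, at least 18.7-fold more against a floor of 3 counts over the FLK1+ group (adjusted p = 0.00246). Without replicate 3 of ENG-FDG+, the library with the single read, the difference was 4.52, its error could not be estimated and it was not called.

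Nr2f2 encodes COUP-TFII, the nuclear receptor of vein endothelium, and lies at chr7:70351944-70366735 on the minus strand. Replicates 1, 2 and 3 had 8.78, 44.4 and 52.1 CPM in ENG+FDG+ cells, 3.56, 13.4 and 9.29 CPM in ENG-FDG+ cells and 14.5, 35.3 and 49.1 CPM in ENG+FDG- cells. In FLK1+ LacZ+ cells they had 2.17, 1.70 and 3.28 CPM, and in FLK1+ LacZ- cells 0.351, 0.646 and 2.69 CPM. The venous gene, like Gja4, was highest in both ENG+ groups, lower in ENG-FDG+ and lowest in FLK1+ cells, while its replicate 1 libraries were the lowest of each HEI group. The means were 35.1 ± 23.1 CPM in ENG+FDG+, 8.74 ± 4.93 CPM in ENG-FDG+, 33 ± 17.4 CPM in ENG+FDG-, 2.39 ± 0.813 CPM in FLK1+ LacZ+ and 1.23 ± 1.27 CPM in FLK1+ LacZ- libraries.

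HEI cells had 25.6 CPM of Nr2f2 on average and FLK1+ cells 1.81 CPM, a log2 difference of 3.66 ± 0.58 (adjusted p = 0.000298) with no overlap. ENG+FDG+ cells differed from ENG-FDG+ cells by 2.0 ± 0.78 (adjusted p = 0.395) with group means, and their ranges overlapped through replicate 1 of ENG+FDG+. With the block the difference was 1.86 ± 0.39 and passed (adjusted p = 0.00991). In replicates 2 and 3 it was 2.16 ± 0.32 (adjusted p = 0.00131), in a fit that called 29.3% of genes. ENG-FDG+ cells lay below ENG+FDG- cells without overlap, as did 8.38% of all tested genes, and differed by -1.91 ± 0.78 (adjusted p = 0.423) with group means and -1.90 ± 0.39 (adjusted p = 0.00906) with the block. Exons of Nr2f2 overlap 643 bases of the transcript B130024G19Rik on the other strand, which had 0 to 2 counts in any library.

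Nr2f1, the COUP-TFI gene, is the close relative of Nr2f2 best known from neural development, and lies at chr13:78188973-78199757 on the minus strand. Its counts were 1, 2 and 4 in ENG+FDG+, 1, 1 and 2 in ENG-FDG+, 1, 9 and 1 in ENG+FDG-, 2, 2 and 6 in FLK1+ LacZ+ and 10, 3 and 7 in FLK1+ LacZ- libraries. The HEI and FLK1+ ranges overlapped, and the gene was too low to be tested after filtering. Without the filter HEI differed from FLK1+ by -0.93 ± 0.65 (adjusted p = 0.335), the direction opposite to that of Nr2f2. The antisense transcript A830082K12Rik, which shares 123 exonic bases with it, had 0 to 20 counts, so the Nr2f1 values are uncertain.

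Gja1 encodes Cx43, the connexin of ventricle, smooth muscle and many embryonic cell types, and lies at chr10:56377330-56402513 on the plus strand. Replicates 1, 2 and 3 had 29.5, 81.0 and 83.5 CPM in ENG+FDG+ cells, 49.6, 125 and 102 CPM in ENG-FDG+ cells and 37.0, 85.8 and 77.8 CPM in ENG+FDG- cells. FLK1+ LacZ+ libraries had 128, 333 and 450 CPM, and FLK1+ LacZ- libraries 134, 400 and 393 CPM. All FLK1+ libraries lay above all HEI libraries, and replicate 1 was the lowest library of every group. HEI cells averaged 74.6 CPM and FLK1+ cells 306 CPM, a log2 difference of -2.06 ± 0.37 (adjusted p = 0.000693).

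Within HEI, Gja1 had its highest mean in ENG-FDG+ cells, where Gja5 and Gja4 had their lowest. It was 64.7 ± 30.5 CPM in ENG+FDG+, 92.2 ± 38.6 CPM in ENG-FDG+ libraries and 66.9 ± 26.2 CPM in ENG+FDG- libraries. ENG+FDG+ cells were lower than ENG-FDG+ cells in 3 of 3 replicate numbers, at -0.51 ± 0.58 (adjusted p = 0.968) with group means and at -0.56 ± 0.14 (adjusted p = 0.0233) with the block, and the ranges overlapped. ENG-FDG+ against ENG+FDG- cells gave 0.45 ± 0.14 with the block (adjusted p = 0.0542), which did not pass.

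Gjc1 encodes Cx45, the connexin of the early heart tube, the nodes and vascular smooth muscle, and lies at chr11:102799579-102819700 on the minus strand. It was at 36.4, 54.5 and 51.3 CPM in ENG+FDG+ cells, 34.8, 33.5 and 28.7 CPM in ENG-FDG+ cells and 43.9, 45.4 and 44.5 CPM in ENG+FDG- cells, against 70.4, 116 and 108 CPM in FLK1+ LacZ+ and 64.0, 118 and 98.9 CPM in FLK1+ LacZ- cells. Again every FLK1+ library lay above every HEI library. The average was 41.4 CPM in HEI and 96.0 CPM in FLK1+ cells, a log2 difference of -1.23 ± 0.17 (adjusted p = 8.10e-05). Unlike Gja1, Gjc1 was not highest in ENG-FDG+ cells among the HEI groups, and all ENG+FDG+ libraries lay above all ENG-FDG+ libraries. The difference was 0.55 ± 0.26 (adjusted p = 0.556) with group means and 0.52 ± 0.18 (adjusted p = 0.0791) with the block. In replicates 2 and 3 it was 0.83 ± 0.11 (adjusted p = 1.15e-05), in a fit that called 29.3% of genes. Within replicate 1 it was only 0.07.

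**Figure D2:**
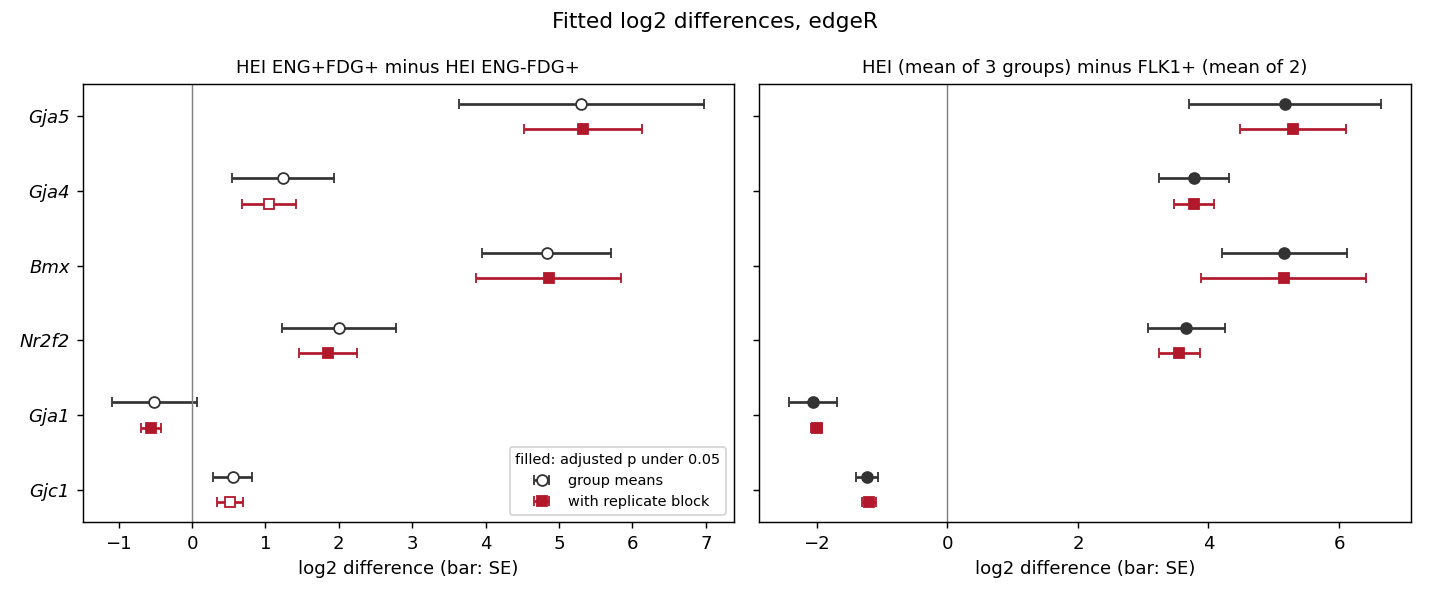
Fitted log2 differences with SE (bars) of the 6 tested genes from edgeR, for HEI ENG+FDG+ minus ENG-FDG+ cells on the left and all HEI minus all FLK1+ cells on the right, by group means (circles) and with the replicate block (squares), filled where the adjusted p is under 0.05. On the right all 6 are filled, with Gja1 at -2.06 and Gjc1 at -1.23 below 0 and Bmx at a fitted value against no FLK1+ read, and on the left Gja5, Bmx, Nr2f2 and Gja1 are filled only with the block.

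In the ENG comparison as a whole, the block called 4 of 6 tested members, 3 higher and 1 lower in ENG+FDG+ cells, in a fit that called 10.8% of all tested genes, 5.1% higher and 5.75% lower. Of the 6 tested members, Gja5, Gja4, Bmx and Gjc1 were higher without overlap in the ENG+FDG+ libraries, as were 8.45% of all genes. With group means 3 of 6 members had an unadjusted p under 0.05, Bmx, Gja5 and Nr2f2, against 9.43% of genes. For ENG-FDG+ against ENG+FDG- cells, 0 of 6 passed by group means, where 0.351% of genes passed, and 3 of 6, Gja5, Bmx and Nr2f2, were lower with the block, where 11.1% of genes passed, 5.65% in that direction. DESeq2 called Gja5 and Bmx in both comparisons, where it called 3.3% of genes in the first and 3.33% in the second. Gja5 and Bmx are in every set of members called in this paragraph. They passed the low-count filter through the ENG+ groups where they were high. Their higher level there was thus partly fixed by the filter, and the counts are not evenly set against the shares of all genes. The summed endothelial markers, which include Eng, were also higher in both ENG+ groups than in ENG-FDG+ cells. Summed over 15 haematopoietic markers the level was 121 to 191 CPM in ENG+FDG+, 668 to 818 CPM in ENG-FDG+ libraries and 167 to 180 CPM in ENG+FDG- libraries, and over 13 smooth muscle and mesenchyme markers it was 130 to 589 CPM in ENG+FDG+, 359 to 5178 CPM in ENG-FDG+ libraries and 274 to 483 CPM in ENG+FDG- libraries. No haematopoietic marker was at 0 in any HEI group, and of the smooth muscle and mesenchyme markers Lum was at 0 in both ENG+ groups. Their part in the result was not tested.

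The reporter comparisons found no member. Between ENG+FDG+ and ENG+FDG- cells edgeR called 0 genes of all tested (0%), with 39 at an unadjusted p under 0.05 (0.285%), and DESeq2 called 0. The differences were -0.63 ± 1.25 for Gja5, -0.01 ± 0.69 for Gja4, -0.02 ± 0.61 for Bmx, 0.09 ± 0.75 for Nr2f2, -0.05 ± 0.58 for Gja1 and 0.09 ± 0.26 for Gjc1. Missing the threshold with such errors does not show that the levels were equal. Between FLK1+ LacZ+ and LacZ- cells edgeR again called 0 genes (0%), with 170 at an unadjusted p under 0.05 (1.24%), and DESeq2 called 7 (0.0884%), none of them a member. Gja4 differed by 1.03 ± 0.73, with within-pair values of 2.26, -0.75 and -0.01, and was higher in LacZ+ cells in 1 of 3 pairs. Nr2f2 differed by 0.97 ± 0.83 and was higher in LacZ+ cells in 3 of 3 pairs, by 2.18, 1.20 and 0.27. Gja1 differed by -0.03 ± 0.57 and Gjc1 by 0.07 ± 0.26. The reporter effect in HEI minus that in FLK1+ cells called 0 genes in edgeR (0%), with 97 at an unadjusted p under 0.05 (0.71%), and 0 in DESeq2. Its estimates were -1.04 ± 1.0 for Gja4, -0.88 ± 1.11 for Nr2f2 and -5.0 ± 2.95 for Gja5.

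Per kb of exon, the order of the connexin means differed between the populations. Dividing by length assumes that reads grow with the full annotated exonic length, which was not tested in these libraries. In ENG+FDG+ cells Gja4 led at 42.6 ± 28.6 CPM per kb, followed by Gjc1 at 9.47 ± 1.92, Gja1 at 6.30 ± 2.97, Nr2f2 at 4.07 ± 2.68, Gja5 at 0.864 ± 1.05, Bmx at 0.361 ± 0.0748 and Nr2f1 at 0.0427 ± 0.0330. Gja1 and Nr2f2, and likewise Gja5 and Bmx, differed by less than the larger of their SDs. In ENG-FDG+ cells Gja4 was at 18.0 ± 4.80 CPM per kb, Gja1 at 8.99 ± 3.77, Gjc1 at 6.46 ± 0.639 and Nr2f2 at 1.01 ± 0.571. In FLK1+ LacZ- cells the order was Gja1 at 30.1 ± 14.8 CPM per kb, Gjc1 at 18.7 ± 5.51, Gja4 at 1.63 ± 0.447 and Nr2f2 at 0.142 ± 0.148. In FLK1+ LacZ+ cells Gja1 was at 29.6 ± 15.9 CPM per kb and Gjc1 at 19.6 ± 4.90. Per kb, Gja4 thus had the highest mean of the 4 connexins in each HEI group, which rests on the lengths used, 1.685 kb for Gja4 and 10.26 kb for Gja1. In CPM without this division, ENG-FDG+ means were 92.2 for Gja1, 32.3 for Gjc1 and 30.4 for Gja4. The CPM means of Gja4 and Gja1 were 71.7 and 64.7 in ENG+FDG+ and 72.0 and 66.9 in ENG+FDG- cells. Gja1 and Gjc1 differed by less than the larger of their SDs in ENG-FDG+ cells and in both FLK1+ groups. In replicate 1 Gjc1 was above Gja1 in ENG-FDG+ cells, at 6.95 against 4.83 CPM per kb, and in FLK1+ LacZ+ cells, at 14.1 against 12.5.

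In HEI cells the balance of the arterial gene Gja4 and the venous gene Nr2f2 differed more between replicate numbers than between groups. Per kb, Gja4 exceeded Nr2f2 by ratios of 74.3, 5.09 and 4.29 in replicates 1, 2 and 3 of ENG+FDG+ cells, 56.5, 10.8 and 13.1 in ENG-FDG+ cells and 47.7, 5.72 and 4.34 in ENG+FDG- cells. In FLK1+ cells the ratios were 27.7, 3.91 and 5.60 in LacZ+ and 33.8, 18.3 and 6.88 in LacZ- libraries, on low counts. Replicate 1 had the highest ratio in all 5 groups. The size of the ratios, unlike their order, rests on the exonic lengths. In CPM Gja4 was not above Nr2f2 in every library, as in replicate 3 of ENG+FDG+ cells, at 43.6 against 52.1 CPM. A contrast of replicate 1 with replicates 2 and 3, added after seeing the data, called 70.3% of all tested genes and 5 of the 6 tested members. In replicates 2 and 3 the ENG-FDG+ cells had higher ratios than both ENG+ groups.

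**Figure D3:**
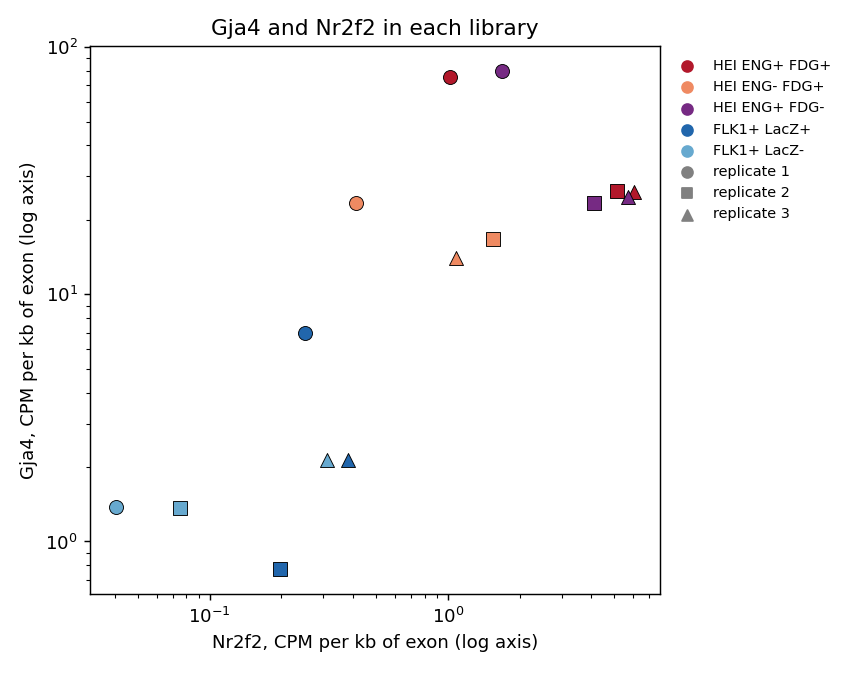
Level of Gja4 against that of Nr2f2 in each of the 15 libraries, both in CPM per kb of exon on log axes, with colours for groups and shapes for replicate numbers. Both genes are higher in HEI than in FLK1+ libraries, and the replicate 1 circles of the HEI groups sit to the upper left of their squares and triangles, with ratios of 47.7 to 74.3.

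Most called genes of the wider arterial and venous lists, which include Gja5, Gja4, Bmx and Nr2f2, were higher in HEI cells. Of 26 arterial genes 25 were tested, and 13 were higher and 4 lower in HEI than in FLK1+ cells, with a median log2 difference of 1.28 against -0.11 over all tested genes. Setting Bmx at its bound leaves this median as it is. Besides the members, Acvrl1, a BMP receptor of arterial endothelium, was higher by 3.54 ± 0.47 (adjusted p = 6.83e-05), and the hypoxia factor gene Epas1 by 3.36 ± 0.31 and the SOXF factor gene Sox17 by 3.26 ± 0.30. Cxcr4, a chemokine receptor of arterial tips and also of early mesoderm, fell by 6.76 ± 0.32 (adjusted p = 2.84e-08), and Bmp4, Dll1 and the Notch target Hey1 were lower, at -2.48, -2.33 and -1.62. Of 9 venous genes, all tested, 7 were higher and 0 lower, with a median of 1.52. Emcn, a sialomucin of veins and capillaries, was higher by 6.91 ± 0.61 (adjusted p = 2.78e-06), the adaptor gene Dab2 by 1.95 ± 0.29, Vwf, a clotting factor of endothelium, by 1.86 ± 0.37, and the venous Eph receptor gene Ephb4 by 1.52 ± 0.25 (adjusted p = 0.000332). In this comparison 14 of 14 endothelial markers rose, 8 of 8 primitive streak markers fell, and 37.3% of all genes were called. The primitive streak markers summed to 2.29 to 14.7 CPM in HEI libraries, with Fgf8 and Mesp1 at 0 in each HEI group, against 655 to 2621 CPM in FLK1+ libraries. The part of these markers in the counts of list genes and members was not tested.

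**Figure D4:**
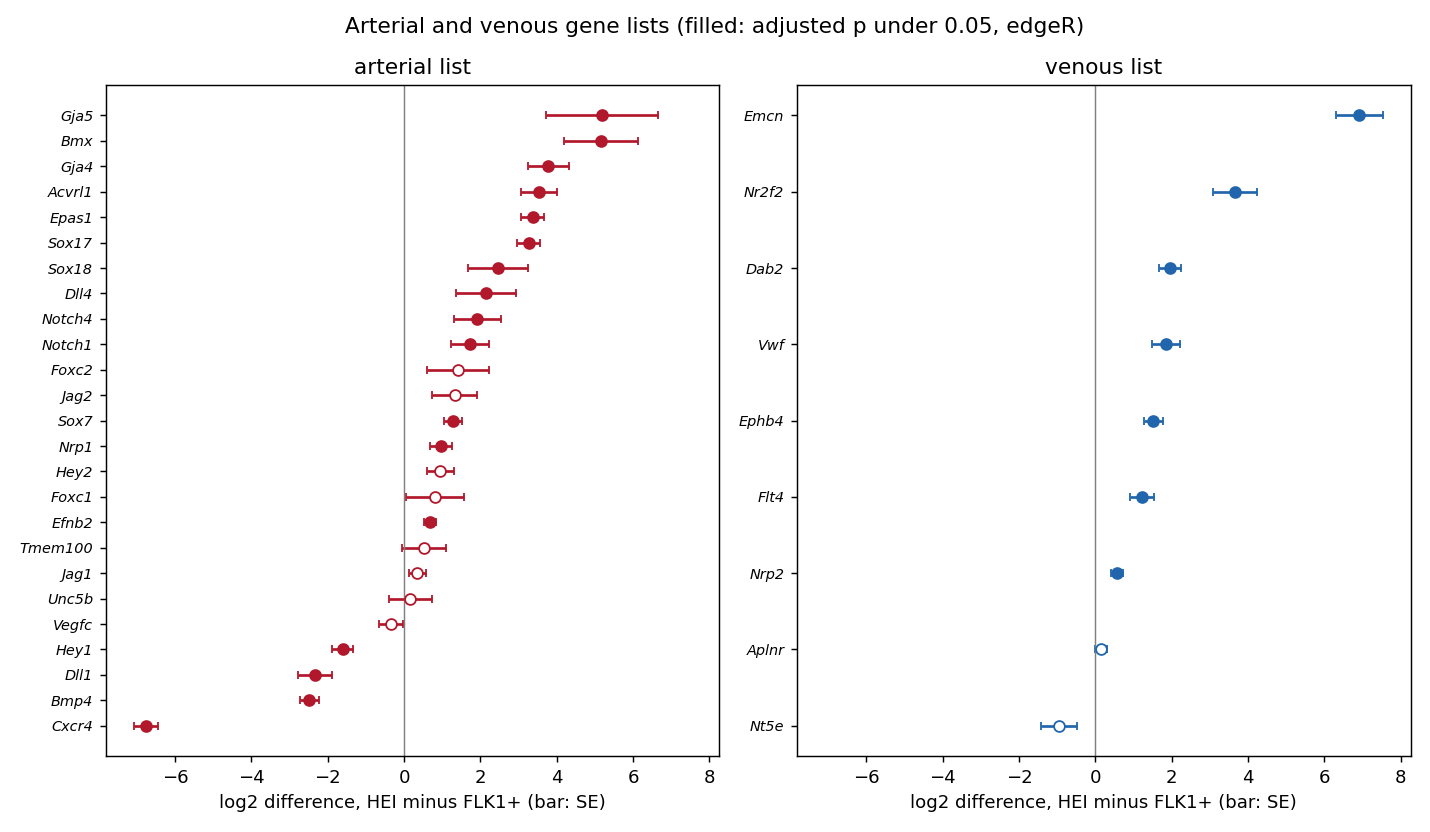
Log2 differences, HEI minus FLK1+ cells, with SE (bars) for the 25 tested genes of the arterial list (left) and the 9 of the venous list (right), filled where the edgeR adjusted p is under 0.05. Cxcr4 is lowest at -6.76, Gja5 is at 5.17, Bmx is drawn at its fitted value although no FLK1+ library held a read of it, and in the venous list 7 of 9 are filled, all to the right of 0.

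Between ENG+FDG+ and ENG-FDG+ cells no gene of either list passed with group means in edgeR. The medians were 1.02 over the arterial and 0.78 over the venous list, against -0.05 over all tested genes. The most abundant listed genes were Nrp1, a semaphorin and VEGF co-receptor, at 0.60 ± 0.43, Unc5b, a netrin receptor, at 0.27 ± 0.87, Nrp2, the venous and lymphatic relative of Nrp1, at 0.43 ± 0.24, and the apelin receptor gene Aplnr at -0.23 ± 0.24. With the block 11 of 25 arterial and 5 of 9 venous genes were called higher in ENG+FDG+ cells, and 0 of either list lower, where 5.1% of all genes were called higher. Among them Sox17 was higher by 1.61 ± 0.15 (adjusted p = 5.86e-05), the ephrin gene Efnb2 by 1.02 ± 0.14 (adjusted p = 0.000714) and Emcn by 2.20 ± 0.37 (adjusted p = 0.00264). ENG-FDG+ against ENG+FDG- cells gave 11 arterial and 5 venous genes lower with the block, where 5.65% of all genes were called lower. Both arterial counts include Gja5 and Bmx, which passed the low-count filter through the ENG+ groups. No gene of these 2 lists passed in either reporter comparison, with or without the block.

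Of 19 further connexin and pannexin genes, 4 passed the filter and all 4 were lower in HEI than in FLK1+ cells. This comparison called 17% of all tested genes higher and 20.3% lower. Gjb2, the gene of an epithelial and inner ear connexin, averaged 0.0320 CPM in HEI and 13.6 CPM in FLK1+ cells, a log2 difference of -8.80 ± 0.59 (adjusted p = 1.25e-06). Gjb5, a connexin gene of skin and trophoblast, differed by -5.04 ± 0.67, and Panx1, a channel gene of the related pannexins, by -0.75 ± 0.24 (adjusted p = 0.0265). Among 8 partners of connexins at junctions, 4 were higher and 1 lower. Cdh5, the gene of VE-cadherin, was higher by 5.65 ± 0.40 (adjusted p = 4.98e-07), Nov, whose protein binds Cx43, by 3.42 ± 0.75, and the scaffold gene Tjp1 by 0.96 ± 0.23. Cdh2, the gene of N-cadherin, was lower, at -1.08 ± 0.16 (adjusted p = 0.000197). Of 9 relatives of Bmx and the COUP-TFs, 4 were tested and the kinase gene Tec was the 1 called, at 1.05 ± 0.34 (adjusted p = 0.0265). The block called 3 of the 4, all higher, in a fit that called 66.2% of all tested genes. In the ENG comparison 0 of the 4 connexin genes, 0 of the 8 partners and 0 of the 4 relatives passed with group means, where 0.278% of all tested genes passed. With the block, which called 10.8% of genes, 2 partners passed, Tjp1 at 0.55 ± 0.13 (adjusted p = 0.0157) and Ctnnb1 at 0.41 ± 0.11 (adjusted p = 0.0302).

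Genes with the pattern most like each member were found by Pearson's r of log2 CPM over the 15 libraries after the mean of each replicate number was subtracted, among tested genes with a group mean of at least 10 CPM. The libraries are shared by all pairs, so r is a description. Gja5 was most like Grin3a (0.986), Efnb2 (0.971) and Sft2d2 (0.971), and Bmx most like Cttnbp2nl (0.988), Armcx1 (0.973) and Mtch1 (0.972). Gja4 was most like Tmcc3 (0.993) and Plvap (0.993), and Nr2f2 most like Pi16 (0.982), Sox18 (0.982) and Ocln (0.980). Gja1 was most like Rps6ka6 (0.992), Rrp1b (0.991) and Fgf15 (0.991), and Gjc1 most like Spry4 (0.975), Elovl4 (0.973) and Slc1a5 (0.972). Several of these values depended on the subtraction. Without it r was 0.0759 for Gjc1 with Slc1a5 and 0.655 with Spry4, and 0.486 for Bmx with Mtch1 and 0.566 with Armcx1. For Nr2f2 with Sox18 it was 0.581. The other pairs named had 0.750 (Gja5 with Efnb2) to 0.994 (Gja1 with Rps6ka6). Efnb2, for example, was at 321 ± 22.1 CPM in ENG+FDG+, 159 ± 21.8 CPM in ENG-FDG+ libraries and 357 ± 20.01 CPM in ENG+FDG- cells, against 171 ± 34.5 CPM in FLK1+ LacZ+ and 157 ± 39.0 CPM in FLK1+ LacZ- cells. Among the members themselves the highest values were 0.947 between Gja4 and Nr2f2 and 0.924 between Gja5 and Bmx, and Gja1 ran against Gja4 at -0.946 and against Nr2f2 at -0.924.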

How the data were processed

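RNA of 15 sorted cell samples was amplified (Nugen kit) before Illumina library construction, per the labels' protocol. The deposited values are raw counts per gene symbol, and the submitters' processing notes list STAR 2.4.0, HTSeq 0.6.1 and the build mm10. The sources used here do not give the annotation, the strand setting or the role of each tool. Of 24061 lines, 27 held a calendar date in place of a symbol and were left out. Gene positions and exonic lengths came from GENCODE M21 (GRCm38), the build that mm10 names, and promoters from RefSeq (GRCm38.p6). Of the 7 members, 6 had a promoter entry, and Gjc1 is named only.

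Counts were analysed in R 4.3.3 with edgeR 4.0.16 and limma 3.58.1. After filterByExpr and TMM scaling, all 15 libraries entered 1 quasi-likelihood fit (robust, 1 mean for each group), with Benjamini-Hochberg adjustment over the 13662 genes and a threshold of 0.05. The SE is the one that gives the test statistic. Within-pair log2 differences used a prior count of 2, and a group at 0 was set at 3 counts over the group for a fold. Counting intervals are exact, at 95%. The fit was tested on simulated counts that held no replicate effect. Unlike them, these data had replicate 1 apart in every group, so that test does not cover this feature.

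The replicate numbers were taken to pair the samples. Libraries with the same number deviated together from their group means in each of the 10 pairs per number (r 0.563 to 0.867, 0.472 to 0.665 and 0.432 to 0.680 for numbers 1, 2 and 3). No correlation was computed between libraries with different numbers. Replicate 1 stood apart in every group, which moves replicates 2 and 3 to the same side of the group mean. The values therefore cannot show that numbers 2 and 3 pair the samples. The labels do not say what a number marks. Replicates 2 and 3 differed by more than sampling noise (chi-square per degree of freedom 3.62 to 8.38). Alternatives were RLE factors, no filter, DESeq2 1.42.0, only the groups compared, the replicate block, replicates 2 and 3 alone, and each library left out in turn. Named genes were the 7 members and, per list and comparison, up to 4 genes past the threshold by size, or the 2 of highest level where none passed, and the 3 genes most like each member, leaving out unnamed gene models. Some genes that this rule names are not reported here. Acvrl1, Epas1, Sox17, Bmp4, Dll1, Hey1 and Ephb4, and the genes named from the block, were chosen after their values were seen. The members and lists were chosen with earlier results of these data known.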

Additional observations from a re-analysis of the deposited data

How the results depend on the processing

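The calls of all 6 tested members between HEI and FLK1+ cells, and in the test of any difference among the 5 groups, passed also with RLE factors, no filter, DESeq2, the replicate block and replicates 2 and 3 alone. The exceptions among fits without 1 library were Gja5 (4.79 without replicate 1 of ENG-FDG+) and Bmx (4.52 without replicate 3 of ENG-FDG+). The number of genes called moved with the setting. ENG+FDG+ against ENG-FDG+ cells gave 38 genes, and 12 without the filter, 441 with DESeq2, 0 with only the groups compared, 1482 with the replicate block and 3899 in replicates 2 and 3. ENG-FDG+ against ENG+FDG- cells gave 48, and 13, 445, 0, 1515 and 3605 in the same order. Leaving out 1 library gave 0 to 61 genes in the first and 0 to 62 in the second. The first count moved by over 1.5 times without any library but replicate 1 of ENG-FDG+, ENG+FDG- or FLK1+ LacZ-, and the second without any but replicate 1 of ENG-FDG+, FLK1+ LacZ+ or FLK1+ LacZ-. Leaving out 1 library called no member in either. HEI against FLK1+ cells gave 5096 genes, 9039 with the block and 9815 in replicates 2 and 3, and any difference among groups gave 3176, 7973 and 9672. In replicates 2 and 3 the FLK1+ comparison gave 8 genes (7 with DESeq2, and 0 to 1 without 1 library), the FDG comparison 75 and the difference of reporter effects 4, none a member. The block changed no call of a member other than those given beside the results.

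Signs turned only for differences that passed the threshold under none of the settings run. With the block, FDG differences were 0.0368 for Gja4 (0.00494 with only the groups compared) and -0.0408 for Nr2f2, and the difference of reporter effects was -0.0145 for Gjc1. In replicates 2 and 3 the FDG differences were 0.142 for Gja5, 0.140 for Gja4 and 0.0341 for Gja1, the FLK1+ difference was -0.293 for Gja4, and the differences of reporter effects were 0.432 for Gja4 and 0.0643 for Gja1. Without 1 library, FLK1+ differences ran from -0.166 to 1.49 for Gja4, -0.427 to 0.340 for Gja1 and -0.148 to 0.269 for Gjc1. FDG differences ran from -2.34 to 1.82 for Gja5, -0.717 to 0.823 for Gja4, -0.341 to 0.299 for Gja1, -0.0255 to 0.246 for Gjc1, -0.149 to 0.133 for Bmx and -0.312 to 0.550 for Nr2f2. Differences of reporter effects ran from -1.75 to 0.159 for Gja4, -0.389 to 0.377 for Gja1 and -0.182 to 0.234 for Gjc1. The cause was not tested. Without centring on the replicate number the most alike genes were Rgs3 for Gja5 (0.974), Prkd1 for Gjc1 (0.965) and Lpar6 for Nr2f2 (0.973). Depth limits Bmx, Nr2f1 and, outside the ENG+ groups, Gja5, where 3 counts in a library equal 0.182 to 0.308 CPM.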

Other observations

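The contrast of replicate 1 with replicates 2 and 3, chosen after seeing the data and fitted with the replicate block, called members in both directions. Gja5 was higher in replicate 1 by 3.28 ± 0.45 on the log2 scale (adjusted p = 3.05e-05) and Gja4 by 1.29 ± 0.26 (adjusted p = 0.000548). Nr2f2 was lower, at -1.60 ± 0.31 (adjusted p = 0.000372), as were Gja1, at -1.40 ± 0.10 (adjusted p = 1.62e-08), and Gjc1, at -0.36 ± 0.12 (adjusted p = 0.0146). Bmx, at -0.06 ± 0.58 (adjusted p = 0.978), was not called. The arterial connexin genes and the venous gene thus lay on opposite sides of the replicate contrast, while all were higher in HEI than in FLK1+ cells. What the replicate number stands for is not given in the sources used here. Summed over 14 genes, the endothelial markers were also highest in replicate 1 of each HEI group. In replicates 1, 2 and 3 they came to 7407, 4916 and 4905 CPM in ENG+FDG+ cells, 2993, 2918 and 2774 CPM in ENG-FDG+ cells and 8255, 4711 and 4810 CPM in ENG+FDG- cells. Replicate 1 was also the highest in FLK1+ LacZ+ cells, at 1007, 812 and 707 CPM, and the lowest in FLK1+ LacZ- cells, at 515, 836 and 706 CPM. Markers of other cell types also differed in replicate 1 in some groups. The 13 smooth muscle and mesenchyme markers came to 589, 130 and 170 CPM in ENG+FDG+ libraries, 5178, 359 and 783 CPM in ENG-FDG+ libraries and 483, 274 and 289 CPM in ENG+FDG- libraries. In FLK1+ cells they were closer, at 236, 211 and 273 CPM in LacZ+ and 294, 220 and 235 CPM in LacZ- libraries. The 10 cardiac markers came to 144, 23.9 and 39.6 CPM in ENG-FDG+ cells but to 42.7, 54.1 and 41.6 CPM in FLK1+ LacZ+ cells. The 6 pluripotency markers came to 207, 18.4 and 27.5 CPM in FLK1+ LacZ+ cells. The part of these markers in the replicate contrast was not tested.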
